A study of Mus musculus with 20 samples.

Results

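The 10 genes described here encode enzymes of glycolysis: Hk2, Gpi1, Pfkl, Pfkp, Aldoa, Tpi1, Pgk1, Eno1, Pkm and Ldha. They were chosen by name, as the rows of the gene count table whose Ensembl identifier maps to one of these symbols, and each symbol matched 1 of the 46078 rows. All 10 passed the filter on low counts and were among the 21464 genes tested. The counts came from TRAP–seq, in which tagged ribosomes are pulled down and their RNA is sequenced, of adipocytes from epididymal adipose tissue (epiAT) of 20 mice. Every mouse, controls included, carried AdipoERCre, a tamoxifen-inducible Cre under the adiponectin promoter, together with the NuTRAP reporter on a background labelled C576BL6, and received tamoxifen before the diets, so the tag depends on Cre activity in cells that express adiponectin.

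The question was how adipocyte RNA differs in obesity and after weight loss (WL) from that of lean mice of the same age. H mice (n = 3) had eaten a high-fat diet (HFD) for 12 weeks and were 18 weeks old, as were the chow-fed C mice (n = 3). HC mice (n = 3) had 12 weeks of HFD followed by 8 weeks of chow and were compared at 26 weeks with the chow-fed CC_s mice (n = 3). HH mice (n = 2) had 25 weeks of HFD and were compared at 31 weeks with CC_l (n = 2), and HHC mice (n = 2) had 25 weeks of HFD and then 8 weeks of chow and were compared at 39 weeks with CCC (n = 2). The 4 groups of 3 mice and the 4 groups of 2 mice carried different library name prefixes, whose meaning the labels do not give, so that tests were made within a prefix only, and an order of levels over all 8 groups also crosses it. Each library came from a separate mouse.

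Glycolysis turns glucose into pyruvate in the cytosol, and lactate dehydrogenase can turn pyruvate into lactate. In white adipocytes, insulin drives glucose uptake, and the pathway feeds both lactate release and the glycerol backbone and acetyl units of stored fat. Hexokinase and phosphofructokinase catalyse its committed upstream steps, whereas aldolase, triose phosphate isomerase, phosphoglycerate kinase and enolase work near equilibrium. Several of these genes are textbook targets of the hypoxia-inducible factor HIF-1.

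Depth ranged from 10710277 to 36738954 counts per library, and 3 counts, taken as the detection limit, corresponded to 0.0815 to 0.251 CPM, the counts scaled to TMM-adjusted library size. All 10 adipocyte markers, among them Adipoq and Plin1, were detected in every library, with a summed level of 15688 to 141362 CPM. All 10 macrophage markers were also detected in every library, so the pulldown was not free of other RNA. In such bulk libraries, fewer cells of a type and less RNA per cell cannot be told apart.

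A set of 4 libraries stood apart from the rest, and they bear on nearly every enzyme. Mice 1 and 2 of C, mouse 3 of HC and mouse 2 of CCC held 17709 to 28951 CPM of Malat1, a noncoding RNA kept in the nucleus, against 2055 to 11807 CPM in the other 16 libraries. The 10 enzymes together made up 947 to 1334 CPM in these 4 libraries and 2263 to 5437 CPM in the other 16, so the ranges did not overlap. The summed adipocyte markers were also low in the 4, at 15688 to 34553 CPM, although 2 HH libraries, at 29252 and 33595 CPM, and mouse 2 of H, at 32059 CPM, were in the same range. Gpi1, Pfkl, Aldoa, Tpi1, Eno1, Pkm and Ldha each had their 4 lowest values in exactly these 4 libraries. Hk2 did not, with 140 to 340 CPM in the 4 against 50.0 to 1091 CPM in the 16. The comparisons are therefore also given without these 4 libraries, an alternative chosen after seeing the data, in which C and CCC are left with 1 mouse each that is assumed to vary like the other groups.

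**Figure D1:**
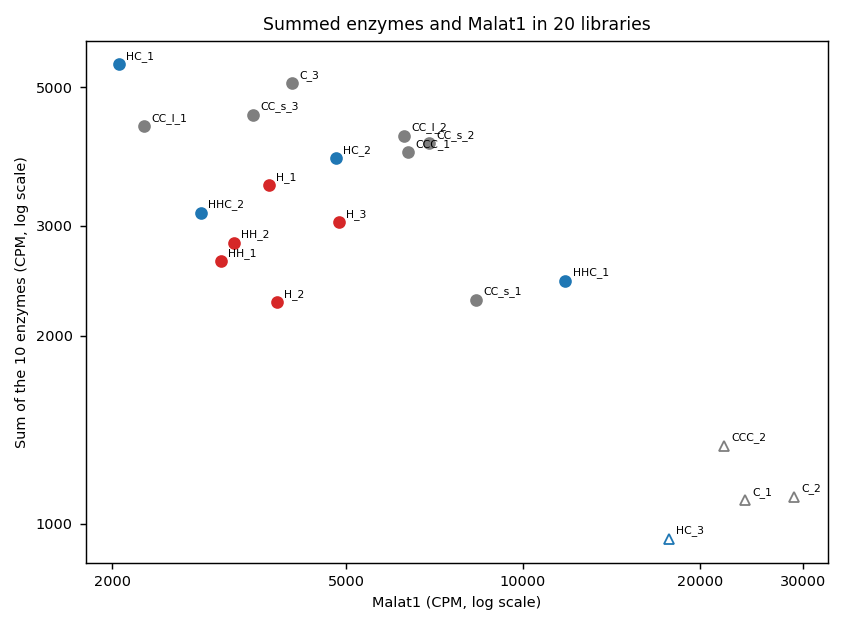
Summed level of the 10 enzymes (CPM, log scale) against Malat1 (CPM, log scale) in each of the 20 libraries, with control groups in grey, obese groups in red, groups after WL in blue and the 4 libraries above 15000 CPM of Malat1 as open triangles. The 4 triangles lie at 947 to 1334 CPM of enzyme RNA, below all other libraries.

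Levels per kilobase of exon, with all annotated exons of a gene taken as its length, spanned a wide range along the pathway. The transcript in use may be shorter than that length, so the order between genes is approximate. Averaged over the 20 libraries, Aldoa was highest at 329 ± 179 CPM per kb (SD, n = 20), followed by Ldha at 221 ± 108 and Tpi1 at 130 ± 61.4. Hk2 (54.8 ± 42.6), Eno1 (43.9 ± 27.2), Pkm (34.9 ± 14.1), Gpi1 (23.7 ± 8.48) and Pgk1 (22.4 ± 10.8) were intermediate, and the phosphofructokinases Pfkl (7.17 ± 2.91) and Pfkp (4.66 ± 1.44) were lowest. The ranges of mean ± SD of neighbours in this order overlapped, other than those of Pgk1 and Pfkl. The place of Hk2 in this order did not hold in every group, since its mean was 94.0 CPM per kb in C but 19.6 in H, below Eno1 (40.5), Pkm (30.1) and Gpi1 (20.1), and 13.5 in HH, below Pgk1 (29.1) as well. Between the lowest and the highest library Hk2 differed 21.8-fold, more than any other member, and Pfkp differed least, 3.22-fold. Without division by length, Pfkp (13401 bases, median 57.8 CPM) stood above Pgk1 (2244 bases, median 49.6 CPM).

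Several of these genes have near-identical copies, so that reads could be split or dropped in counting. Of the 50-base stretches of their transcripts, 53.9% were shared with other genes for Pgk1 (mainly the pseudogenes Pgk1-rs7 and Gm5537), 26.0% for Eno1 (Eno1b, Gm4735), 25.8% for Pkm, 15.8% for Gpi1, 9.26% for Ldha and 6.43% for Aldoa. The levels of these genes are uncertain, by an amount that the shares do not give. Over all libraries Pgk1-rs7 had 1.32% and Gm5537 0.018% as many counts as Pgk1. Eno1b had 0.476% and Gm4735 0.539% as many as Eno1. Reads dropped in counting cannot be seen in these counts. The place of Pgk1 in the order of levels carries most of this doubt among the members. Hk2 shared none. Pkm also overlaps Gm49759 on its own strand, and Gpi1 overlaps Gm26762 on the opposite strand.

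The upstream sequences of 3 members are shown because Hk2 holds the only call among the members, while Pgk1 and Ldha are textbook targets of HIF-1. They are the 250 bases before the annotated start, read 5′ to 3′ along the gene from RefSeq on GRCm38.p6. Capitals mark ACGTG or GCGTG, the core recognised by HIF-1, on either strand, where it reads CACGT or CACGC on the reverse strand. Hk2 lies on the minus strand of chromosome 6 (chr6:82774455-82774704), Pgk1 on the plus strand of chromosome X (chrX:106186850-106187099) and Ldha on the plus strand of chromosome 7 (chr7:46845554-46845803).
Hk2: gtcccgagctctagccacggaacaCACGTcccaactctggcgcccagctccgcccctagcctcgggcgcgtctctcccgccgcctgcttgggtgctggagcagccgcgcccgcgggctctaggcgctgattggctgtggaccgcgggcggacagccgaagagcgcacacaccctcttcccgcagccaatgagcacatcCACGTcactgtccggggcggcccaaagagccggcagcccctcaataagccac
Pgk1: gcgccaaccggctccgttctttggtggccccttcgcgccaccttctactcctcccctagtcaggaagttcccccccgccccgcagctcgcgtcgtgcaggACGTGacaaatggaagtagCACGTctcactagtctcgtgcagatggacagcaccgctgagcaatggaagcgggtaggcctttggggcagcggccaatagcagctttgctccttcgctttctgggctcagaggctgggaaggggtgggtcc
Ldha: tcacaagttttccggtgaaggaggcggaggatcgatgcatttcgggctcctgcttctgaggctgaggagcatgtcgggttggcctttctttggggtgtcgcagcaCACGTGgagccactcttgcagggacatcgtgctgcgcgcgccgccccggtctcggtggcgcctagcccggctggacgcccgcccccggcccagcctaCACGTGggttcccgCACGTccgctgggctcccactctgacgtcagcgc
ACGTG occurs 2 times in the Hk2 window, 2 times in that of Pgk1 and 5 times in that of Ldha, where 2 palindromic CACGTG motifs, each counted on both strands, account for 4 of the 5. All 10 members have at least 1 annotated start, with 16 windows in all, and 12 of the 16 windows, belonging to 8 of the 10 genes, hold ACGTG or GCGTG, as do 38.6% of all 32851 such windows. Gpi1 and Tpi1 have neither. GGGCGG, a GC box searched on both strands, is found in 11 of the 16 windows, belonging to 9 of the 10 members (all but Pfkl), and in 32.7% of all windows. TATAAA is found in 0 of the 16 and in 12.4% of all. These matches describe the letters only.

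Hexokinase traps glucose in the cell as glucose phosphate, and Hk2 (ENSMUSG00000000628, mm10 chromosome 6, 82725025 to 82774454, minus strand) encodes the insulin-responsive form of fat and muscle. It was the only member called in any of the 4 comparisons, where a call needed a nominal p under 0.01 and a log2 fold change of 1 or more in size in edgeR. Hk2 stood at 334, 259 and 1091 CPM in the 3 C mice and at 86.5, 50.0 and 214 CPM in the 3 H mice. Every H mouse was below every C mouse, and mouse 3 of C was far above the other 2. Macrophage and endothelial markers stood higher in the same H libraries, where 3.57% of all genes were called higher. Summed macrophage markers were at 796 to 4437 CPM in H against 260 to 562 CPM in C (7 of 10 called higher). Summed endothelial markers were at 1613 to 1937 against 239 to 643 CPM (4 of 5 called higher). Mesothelial markers went the other way, at 45.9 to 56.0 against 61.0 to 275 CPM (2 of 5 called lower, 2.92% of all genes). All 8 spermatid markers had a lower fitted level, with 0 called, and progenitor and lymphocyte markers went both ways. The part of these cells in the Hk2 value was not tested. The fitted difference was 4.81-fold (log2 fold change -2.27, SE 0.61, 95% confidence interval -3.55 to -0.98, adjusted p = 0.063 in edgeR's quasi-likelihood test), so it passed the call but not an adjusted p of 0.05. The call was lost without mouse 3 of C (-1.35), mouse 1 of H (-2.09) or mouse 2 of H (-1.90), and when the fit held the C and H libraries alone (-2.33). Without the 4 libraries high in Malat1 the log2 fold change was -3.11. Mouse 3 of C, which held the highest Hk2 of all 20 libraries, is then the only control, so this value rests on that mouse.

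After WL from short obesity, Hk2 stood at 237, 347 and 140 CPM in HC against 369, 547 and 697 CPM in CC_s. The 3 HC mice lay below the 3 CC_s mice, yet the difference did not pass the test (log2 fold change -1.16, 95% confidence interval -2.40 to 0.08, adjusted p = 0.58 in edgeR). In long obesity the values were 84.3 and 77.4 CPM in HH against 210 and 252 CPM in CC_l, again without overlap and not called (-1.52, 95% confidence interval -3.05 to 0.02, adjusted p = 0.29). With only the HH and CC_l libraries in the fit, this difference was called (-1.44), as it was with the level of nuclear-retained RNA as a covariate (-1.91). After long obesity and WL the values were 322 and 223 CPM in HHC against 660 and 340 CPM in CCC, which is a small gap and not a call (-0.88, 95% confidence interval -2.39 to 0.64, adjusted p = 0.69). Thus in all 4 comparisons the highest Hk2 value of the treated group lay below the lowest of its control group, where 11.8% (H against C), 5.82% (HC against CC_s), 28.9% (HH against CC_l) and 20.3% (HHC against CCC) of all genes tested showed such a gap downwards.

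The obese groups held the least Hk2, and the order of the group means ran from C (561 ± 460 CPM, SD) through CC_s (538 ± 164), CCC (500 ± 227), HHC (273 ± 70.4), HC (241 ± 104) and CC_l (231 ± 30.1) to H (117 ± 85.96) and HH (80.8 ± 4.87). The ranges of C, CC_s and CCC overlapped, as did those of HHC, HC and CC_l, and the H range reached into that of CC_l and held both HH values. The effect of H did not differ from that of HC by the interaction test (difference of log2 fold changes -1.11, 95% confidence interval -2.85 to 0.63, adjusted p = 0.66 in edgeR), nor that of HH from that of HHC (-0.64, 95% confidence interval -2.76 to 1.48, adjusted p = 0.81), and the intervals leave room for sizeable differences.

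**Figure D2:**
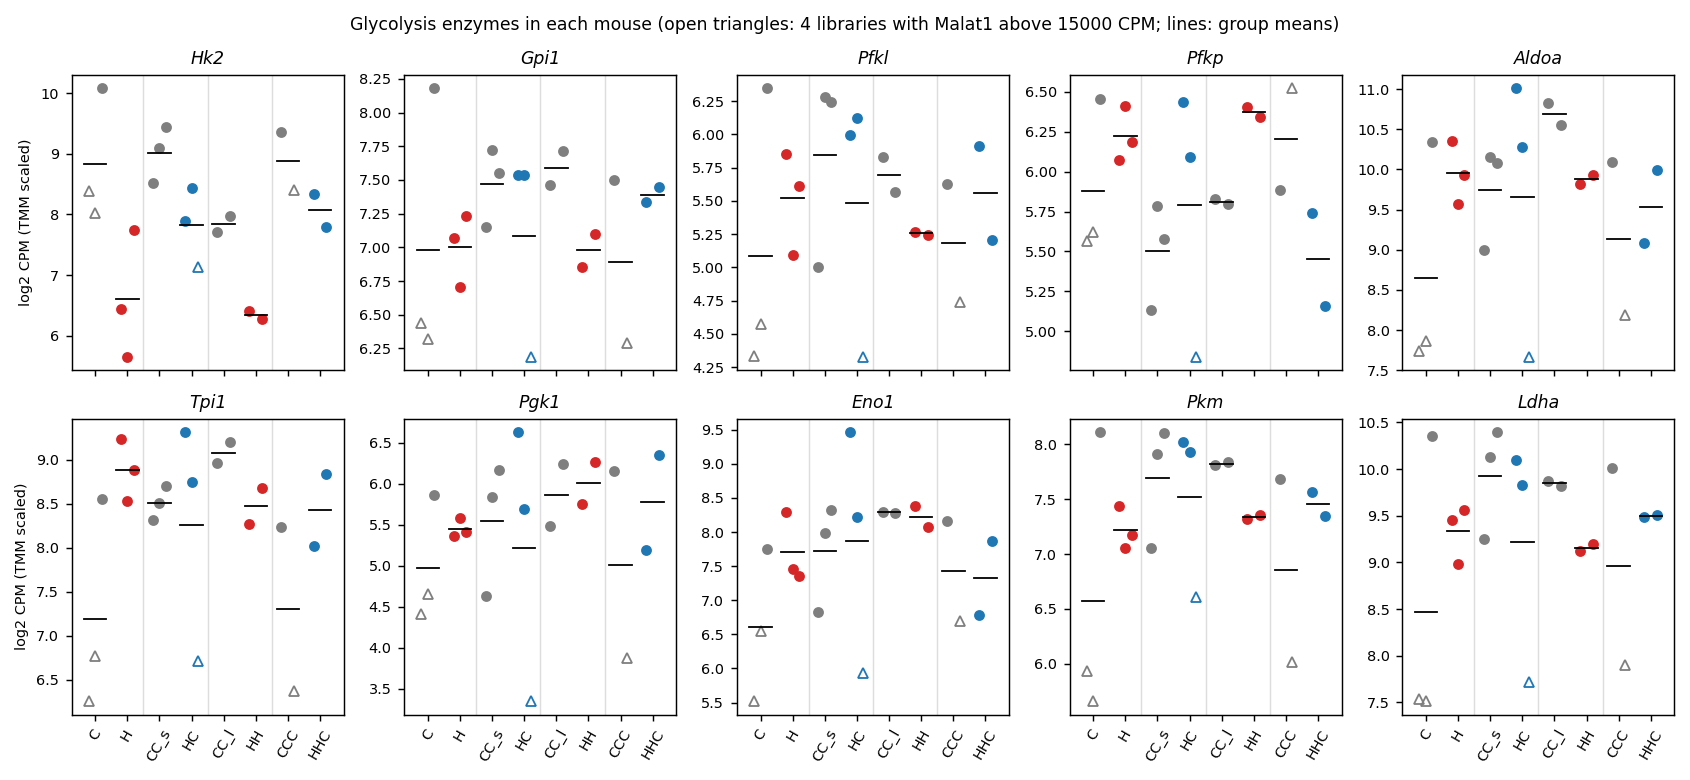
TMM-scaled log2 CPM of each of the 10 enzymes (y axis) in each mouse of the 8 groups (x axis), with lines at the group means and open triangles for the 4 libraries with Malat1 above 15000 CPM. Hk2 is lower in every mouse of H, HC, HH and HHC than in its control group, whereas most other enzymes are lowest in the triangles.

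Gpi1 encodes the isomerase that turns glucose phosphate into fructose phosphate. It stood at 86.6, 79.9 and 290 CPM in C and at 134, 104 and 150 CPM in H. The H mice lay between the 2 low C libraries, both high in Malat1, and the third, and the difference was not called (log2 fold change -0.23, 95% confidence interval -1.25 to 0.79). With the 4 libraries left out, Gpi1 was called lower in H (-1.05, adjusted p = 0.072 in edgeR), with mouse 3 of C as the only control. In HH it stood at 116 and 137 CPM against 177 and 210 CPM in CC_l (-0.61, 95% confidence interval -1.87 to 0.64), and after WL at 186, 186 and 72.8 CPM in HC against 142, 211 and 187 CPM in CC_s (-0.28) and at 161 and 174 CPM in HHC against 181 and 78.1 CPM in CCC (0.37).

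Phosphofructokinase commits the sugar to glycolysis, and Pfkl and Pfkp encode its liver and platelet forms. Pfkl lay between 19.98 and 81.4 CPM over all mice, and its log2 fold changes, 0.17 for H, -0.27 for HC, -0.45 for HH and 0.35 for HHC, all had intervals across 0. In long obesity Pfkp stood at 84.6 and 81.1 CPM in HH and at 56.6 and 55.4 CPM in CC_l (0.56, 95% confidence interval -0.41 to 1.54, adjusted p = 0.54 in edgeR). Both HH values were above both CC_l values, as in 26.3% of all genes. In HHC it stood at 53.5 and 35.6 CPM against 59.0 and 91.9 CPM in CCC, where the highest value came from the library high in Malat1 (-0.76, 95% confidence interval -1.74 to 0.21). Its HH effect differed from its HHC effect by 1.33 (95% confidence interval -0.05 to 2.70, adjusted p = 0.34 in edgeR), the smallest p of this interaction among the 10.

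Aldoa encodes the aldolase that splits the bisphosphate sugar into trioses. It stood at 213, 232 and 1293 CPM in C and at 1309, 759 and 974 CPM in H, with the 2 C libraries high in Malat1 far below all others of this pair (log2 fold change 0.81, 95% confidence interval -0.83 to 2.44), and without the 4 libraries the value was -0.24. In HH it stood at 901 and 979 CPM against 1811 and 1504 CPM in CC_l (-0.82, 95% confidence interval -2.82 to 1.18). The 2 HH mice lay below both controls. Mouse 1 of HC, at 2067 CPM, was the highest of all 20, and mouse 3 of HC, at 203 CPM, the lowest, so the HC against CC_s difference (0.36) had an interval of -1.26 to 1.99.

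Tpi1, which interconverts the trioses, came closest to a higher level in H, at 603, 368 and 472 CPM against 76.4, 109 and 374 CPM in C. The difference (log2 fold change 1.37, 95% confidence interval -0.0022 to 2.73, adjusted p = 0.29 in edgeR) rests on the 2 low C libraries, since without the 4 libraries it was 0.47 (adjusted p = 0.57). It became a call without mouse 3 of C (2.37) and with no filter on low counts (1.44). In HH it stood at 307 and 410 CPM against 497 and 589 CPM in CC_l (-0.60), and in HHC at 259 and 458 CPM against 301 and 82.9 CPM in CCC (0.90).

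Pgk1 makes the first ATP of the pathway, and its log2 fold changes were small in all 4 comparisons (H 0.33, HC 0.06, HH 0.12, HHC 0.47) and all 4 intervals crossed 0. It ranged from 10.1 CPM in mouse 3 of HC to 98.9 CPM in mouse 1 of HC. Enolase yields phosphoenolpyruvate, and Eno1 stood at 45.9, 93.3 and 215 CPM in C against 313, 177 and 164 CPM in H (0.88, 95% confidence interval -0.60 to 2.37; 0.13 without the 4 libraries). In HC it stood at 706, 298 and 60.8 CPM against 114, 254 and 320 CPM in CC_s (0.63), so the spread within HC exceeded the difference. In HH and CC_l it was near equal, at 334 and 269 against 314 and 311 CPM (-0.05, 95% confidence interval -1.86 to 1.76).

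Pkm encodes the pyruvate kinase of most tissues, the second ATP-yielding step, and Ldha the lactate dehydrogenase subunit that favours lactate. Pkm stood at 61.1, 50.4 and 276 CPM in C, 174, 133 and 144 CPM in H, 224 and 229 CPM in CC_l and 159 and 164 CPM in HH. Ldha followed the same pattern, with 186, 183 and 1308 CPM in C, 700, 506 and 755 CPM in H, 940 and 905 CPM in CC_l and 556 and 586 CPM in HH. For both genes the H values lay between the low and the high C libraries, and both HH values lay below both CC_l values. Neither was called in HH (log2 fold change -0.49, 95% confidence interval -1.98 to 1.00, for Pkm and -0.69, 95% confidence interval -2.59 to 1.21, for Ldha). In H the log2 fold change of Pkm was 0.22 with all libraries and -0.77 without the 4, and that of Ldha 0.23 and -0.89, and both had an adjusted p of 0.24 in edgeR without the 4. After WL the log2 fold changes were -0.11 in HC and 0.38 in HHC for Pkm and -0.47 in HC and 0.19 in HHC for Ldha.

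Over all 10 enzymes, 1 was called lower in H and 0 higher, against 2.92% of all genes called lower and 3.57% higher. In HC, HH and HHC, 0 of the 10 were called in either direction by edgeR, and by DESeq2 likewise 0. The background over all genes was 1.57% called higher and 0.172% lower in HC, 4.92% and 1.88% in HH, and 0.447% and 2.67% in HHC. At an unadjusted p under 0.05, 0 members passed in each of HC, HH and HHC and 1 in H. In the interaction of the H with the HC effect and in that of the HH with the HHC effect 0 of the 10 were called (2.99% and 5.84% of all genes), and 0 had a p under 0.05. The median log2 fold change of the 10 was 0.26 in H, -0.03 in HC, -0.54 in HH and 0.27 in HHC, beside -0.15, 0.27, -0.23 and -0.06 for all genes tested.

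**Figure D3:**
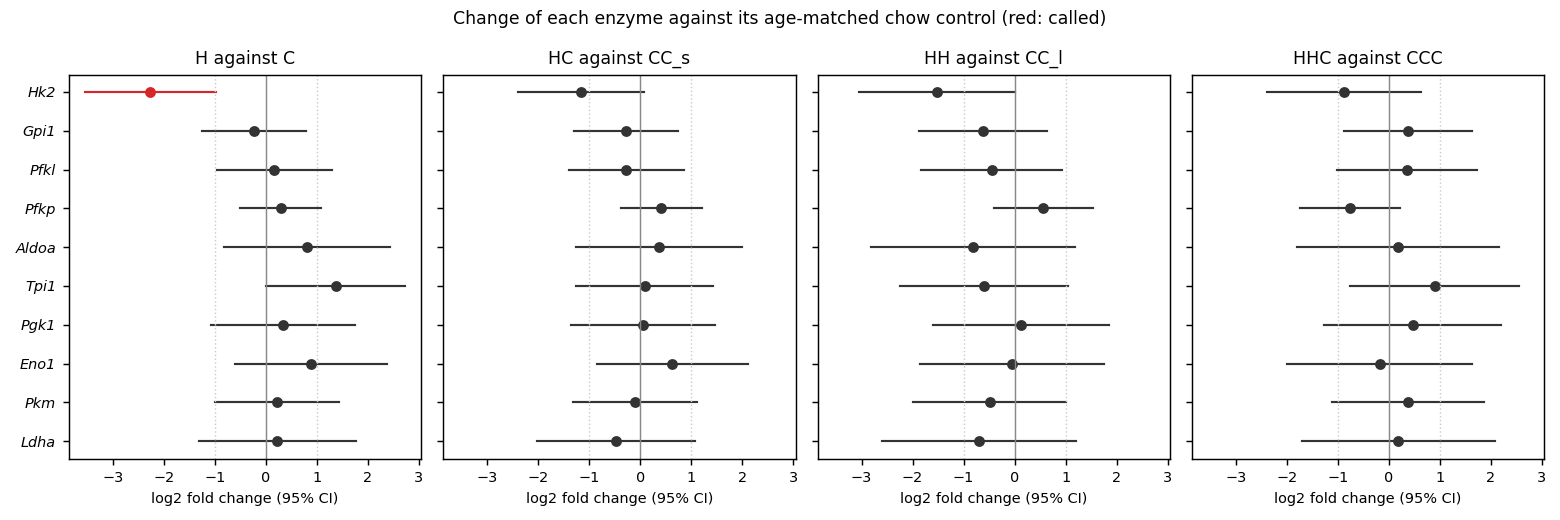
Log2 fold change (points) with 95% confidence interval (lines) of each enzyme in H against C, HC against CC_s, HH against CC_l and HHC against CCC, with dotted lines at -1 and 1 and calls in red. Hk2 in H, at -2.27, is the one call, and most intervals cross 0.

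The groups overlapped for most enzymes in the short arm and after WL. All treated mice were below all controls for 1 of the 10 genes in H (11.8% of all genes) and for 1 in HC (5.82%), in both cases Hk2, and for 2 in HHC (20.3%), Hk2 and Pfkp, and all were above for 0 in H (13.4%), HC (8.01%) and HHC (8.49%). In HH, 7 of the 10 were below in both mice (28.9%) and 1, Pfkp, above (26.3%). The 7 were Hk2, Gpi1, Pfkl, Aldoa, Tpi1, Pkm and Ldha, and Pgk1 and Eno1 overlapped. None of the libraries high in Malat1 is in HH or CC_l, so leaving them out does not test this comparison. With nuclear-retained RNA as a covariate the median log2 fold change of the 10 in HH was -1.03 in place of -0.54. The median of all genes tested was then -0.21 in place of -0.23. The summed adipocyte markers were 29252 and 33595 CPM in HH against 68453 and 76414 CPM in CC_l, and 9 of the 10 adipocyte markers were lower in both HH mice than in both CC_l mice, while the summed macrophage markers stood at 4291 and 5441 against 436 and 518 CPM. The part of these shifts in the enzyme values was not tested.

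Leaving out the 4 libraries, which leaves mouse 3 as the only C mouse, the direction of the short-arm obesity comparison turned for most enzymes. Mouse 3 of C held the highest Hk2, Gpi1, Pfkl and Pkm of all 20 libraries. The median log2 fold change of the 10 in H went from 0.26 to -0.49, and 2 of the 10, Hk2 and Gpi1, were called lower (4.29% of all genes in that fit) and 0 higher (4.22%). In HC the median went from -0.03 to 0.33 with 0 called (0.815% higher and 0.232% lower of all genes), in HHC from 0.27 to -0.26 with 0 called (0.267% and 0.697%), and in HH 0 were called (6.08% and 4.76%). Tpi1 and Eno1 kept a positive value in H (0.47 and 0.13), whereas Pfkl, Pfkp, Aldoa, Pgk1, Pkm and Ldha went from positive to negative. Hk2 was negative in all 4 comparisons with and without these libraries, at -3.11, -0.93, -1.54 and -1.20 without them. For all genes tested, leaving them out moved the median from -0.15 to 0.29 in H and from 0.27 to 0 in HC. It moved from -0.23 to -0.31 in HH and from -0.06 to 0 in HHC.

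**Figure D4:**
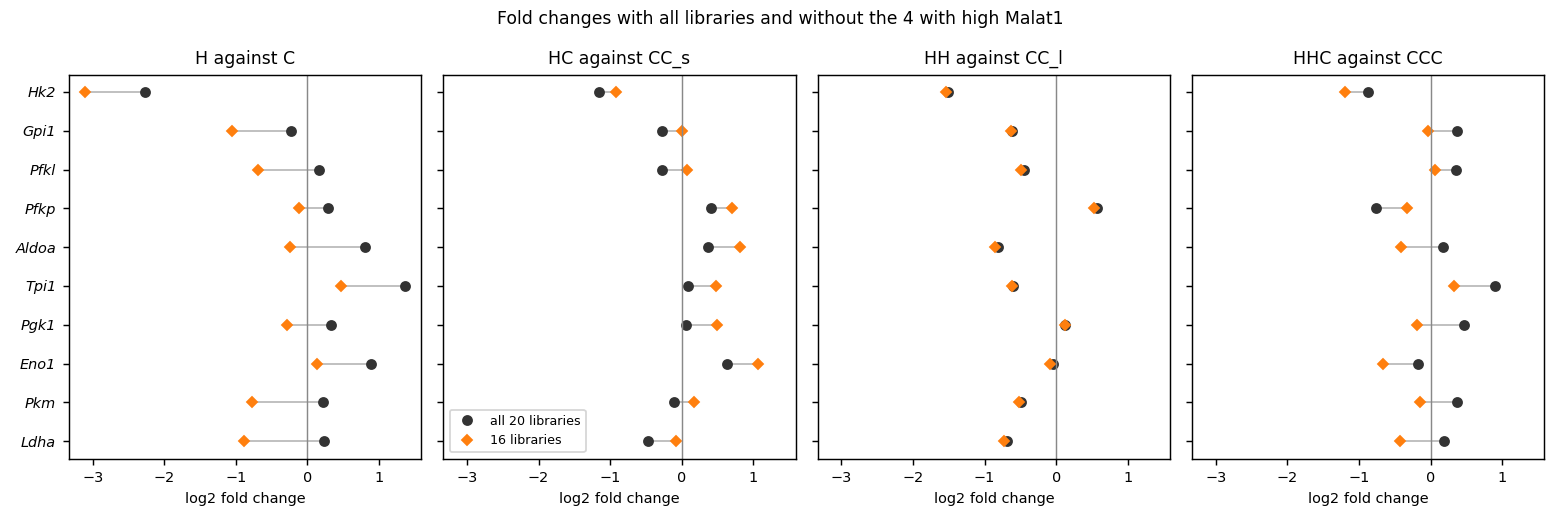
Log2 fold change of each enzyme in the 4 comparisons with all 20 libraries (dark circles) and without the 4 libraries high in Malat1 (orange diamonds). In H against C the diamonds lie to the left of the circles for all 10 enzymes, and in HH against CC_l both nearly coincide.

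Within groups the 10 enzymes varied together between mice, Hk2 and Pfkp less closely than the others. Taking each mouse's deviation from its group mean in log2 CPM, the 45 pairs of members had a median Pearson correlation of 0.83 (range 0.45 to 0.98) over 20 libraries, and 26 pairs were above 0.8. The median correlation with the other members was 0.67 for Hk2, which reached 0.83 with Gpi1 and 0.81 with Ldha, 0.59 for Pfkp and 0.81 to 0.93 for the other 8. Without the 4 libraries high in Malat1 and the groups left with 1 mouse, the median over 14 libraries was 0.56 (range -0.28 to 0.92), and the median of Hk2 with the others was 0.14 and that of Pfkp 0.18. These are descriptions, since the points share library, depth and scaling. The level of each member was also set against the mean of the other 9 across the 20 libraries, which includes the differences between groups, with r from 0.83 to 0.97 for the 8 others and 0.14 for Hk2 and 0.30 for Pfkp. The 5 tested genes whose log2 CPM was most like the mean of the 10 over the 20 libraries were Ubap1 (r = 0.97), Ak3 (0.97), Mrps26 (0.97), Mmachc (0.97) and Poldip2 (0.97).

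Within a step, the isoforms were compared per kilobase. Hk2 made up a median of 94.8% of hexokinase RNA (range 62.3% to 99.4% over 20 libraries). Its share was 96.6% to 99.4% in C and 62.3% to 93.6% in H, and 73.3% and 93.0% in CC_l against 74.0% and 64.8% in HH. The H range lay below that of C, and the lower CC_l value came from mouse 1, whose Hk1 stood at 101 CPM against 5.37 to 43.1 CPM in all others. That library also held 3312 CPM of summed spermatid markers, against at most 556 CPM in the others. Hk3, the form of myeloid cells, took 1.06% to 22.8% of the step in H and 16.1% and 26.3% in HH, against at most 0.46% in C and 4.81% in CC_l.

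Among phosphofructokinases no form dominated. Pfkl had a median share of 43.9%, the muscle form Pfkm 29.3% and Pfkp 26.7%, per kilobase of all annotated exons. Those exons span 6675, 3340 and 13401 bases, and the order of the forms depends on these lengths. Before division by length the medians were 48.0 CPM for Pfkl, 15.6 CPM for Pfkm and 57.8 CPM for Pfkp. Pfkm overlaps Gm26513 on its own strand by 341 exonic bases. In HH the share of Pfkp was 43.8% and 43.5%, against 20.6% and 25.4% in CC_l, and that of Pfkm 16.3% and 15.6% against 38.0% and 31.3%. The HH and CC_l ranges of both forms were apart. Ldha made up a median of 80.0% of lactate dehydrogenase RNA, with its lowest shares in mouse 1 of CC_l (46.1%), where the testis form Ldhc stood at 415 CPM, and in mice 1 and 2 of C (50.4% and 57.6%). Aldoa made up at least 98.0% of aldolase RNA in every library, and Eno1 a median of 87.4% of enolase RNA with a minimum of 27.5% in mouse 1 of C, where Eno3 stood at its highest, 36.1 CPM.

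**Figure D5:**
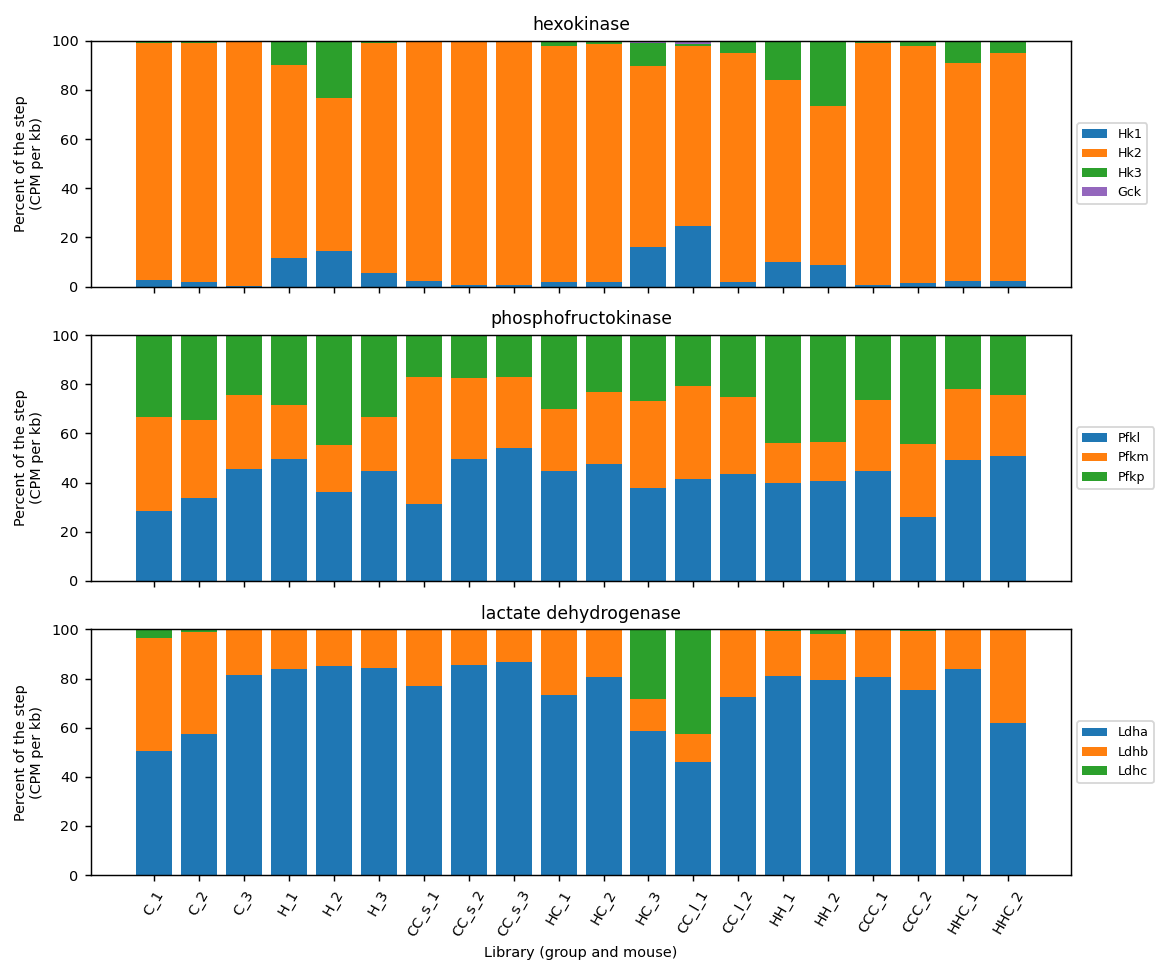
Share of each isoform (percent of CPM per kb summed over the forms shown, stacked to 100) in hexokinase, phosphofructokinase and lactate dehydrogenase RNA in each of the 20 libraries. Hk2 holds most of the hexokinase step in every library, with its lowest shares, 62.3% to 78.8%, in mice 1 and 2 of H, both HH mice, mouse 3 of HC and mouse 1 of CC_l.

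Of the other 23 glycolytic genes (remaining isoforms, regulators and transporters), 22 were tested. In H 1 was called higher and 2 lower (3.57% and 2.92% of all genes), in HC 1 higher (1.57%), in HH 1 higher and 1 lower (4.92% and 1.88%), and in HHC 0. A single call among 22 is near these shares. Pfkfb1, which sets the level of an activator of phosphofructokinase, was lower in H, at 23.2, 16.6 and 28.4 CPM against 124, 127 and 72.1 CPM in C (log2 fold change -2.24, SE 0.39, adjusted p = 0.00801 in edgeR). All 3 H mice lay below all 3 C mice. The 124 and 127 CPM came from the 2 C libraries high in Malat1. Over the 4 such libraries the Pfkfb1 median was 125 CPM, against 43.4 CPM in the other 16. Without the 4 libraries the log2 fold change of Pfkfb1 was -1.55, with mouse 3 of C as the only control. Eno3, the muscle enolase, was called lower in H (-1.88, adjusted p = 0.12) and Pfkfb4 higher (1.32, adjusted p = 0.10), and neither was called in edgeR without the 4 libraries (-0.29 and 0.78). In HC, Hk3 was called higher (3.44, adjusted p = 0.54 in edgeR), and without the 4 libraries it was 2.49 and not called. Macrophage markers summed to 632 to 2287 CPM in HC and 238 to 364 CPM in CC_s. Of these markers 7 of 10 were called higher, against 1.57% of all genes. The part of macrophages in the Hk3 value was not tested.

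In HH, Pfkm was called lower, at 7.84 and 7.27 CPM against 26.0 and 17.0 CPM in CC_l (-1.51, adjusted p = 0.12 in edgeR), and Slc16a1, a lactate and pyruvate carrier, higher, at 69.9 and 57.6 CPM against 23.8 and 23.2 CPM (1.44, adjusted p = 0.13). None of the 4 libraries high in Malat1 is in HH or CC_l, so leaving them out does not test this comparison. In that fit Pfkm and Slc16a1 remained called, and Eno3, Pfkfb1 and Slc2a1, the basal glucose transporter, were called as well (-1.92, -1.33 and 1.63). Without mouse 1 of CC_l, neither Pfkm nor Slc16a1 was called and Pfkfb1 was (-1.67). Summed endothelial markers stood at 1708 and 841 CPM in HH and 161 and 175 CPM in CC_l. Those of macrophages (4291 and 5441 against 436 and 518 CPM) and progenitors (4720 and 7225 against 497 and 887 CPM) were also higher. Mesothelial sums overlapped. In H, all 5 endothelial markers were higher in every mouse than in C (13.4% of all genes). Slc16a1 was lower in every H mouse than in C (11.8% of all genes). Its median was 80.8 CPM in the 4 libraries high in Malat1, which include mice 1 and 2 of C, against 35.6 CPM in the other 16. The part of endothelial, macrophage and progenitor cells in the Slc16a1 and Slc2a1 values was not tested.

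The pathway steps that no member covers, glyceraldehyde phosphate dehydrogenase (Gapdh) and phosphoglycerate mutase (Pgam1), had few counts. Gapdh stood at 0.892 to 15.0 CPM and Pgam1 at 2.18 to 46.0 CPM over all mice, and 25.1% and 36.2% of their 50-base stretches were shared with other genes, for Gapdh with 223 genes of which 213 were pseudogenes, so neither level can be read as that of the gene. Neither was called in any comparison. Of Hk1 and Ldhb, 0 was called in any of the 4 comparisons, with log2 fold changes in HH of -1.79 for Hk1, which became 1.17 without mouse 1 of CC_l, and -1.11 for Ldhb. With nuclear-retained RNA as a covariate Ldhb was called lower in H (-1.68) and in HH (-1.70), and Hk3 higher in H (2.94) and Adpgk and Slc2a1 higher in HH (1.42 and 1.99).

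The testis isozymes were highest in the 2 libraries with the most spermatid RNA. Ldhc, Pgk2, Gapdhs, Aldoart1, Aldoart2 and Eno4 summed to 675 CPM in mouse 1 of CC_l and 76.2 CPM in mouse 3 of HC, against 0.358 to 22.4 CPM in the other 18 libraries. Of the 6, Ldhc and Aldoart2 were called higher in HC, where 1.57% of all genes were. Gapdhs was called lower in HH (-5.24), where 1.88% of all genes were. Ldhc was at 0 counts in all 3 CC_s libraries and in mouse 1 of HC, and at 0.643 and 48.2 CPM in the other 2 HC mice, so no fold is given. Without mouse 3 of HC, or without mouse 1 of CC_l, 0 of the 6 were called in edgeR.

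The hypoxia-response genes, several of which share regulation with glycolysis in textbooks, did not move one way. Of 11 tested, 1 was called higher and 2 lower in H (3.57% and 2.92% of all genes), 2 higher in HH (4.92%), 1 lower in HHC (2.67%) and 0 in HC. Vegfa was lower in H, at 27.8, 23.0 and 42.0 CPM against 210, 271 and 93.0 CPM in C (-2.63, adjusted p = 0.0139 in edgeR). The 210 and 271 CPM came from the 2 C libraries high in Malat1. Over the 4 such libraries the Vegfa median was 241 CPM, against 43.2 CPM in the other 16. Without the 4 libraries Vegfa was at -1.48, with mouse 3 of C as the only control. Pdk1, the kinase that restrains pyruvate dehydrogenase, was also lower in H (-1.49, adjusted p = 0.14 in edgeR, and -2.22 without the 4). Adm was higher in H (1.82, adjusted p = 0.0345; 2.32 without the 4) and in HH (2.85, adjusted p = 0.0225), and P4ha1 higher in HH (1.85, adjusted p = 0.055), all from edgeR. Without mouse 1 of CC_l only Adm of the 11 was called in HH. Without the 4 libraries Bnip3 was also called lower in H (-1.73), Ndrg1 lower in HC (-1.18), and Vegfa lower (-1.26) and Hif1a higher (1.02) in HH. The HH and CC_l mice are the same in that fit, so its HH calls do not test that comparison. With the covariate Bnip3 (-2.25) and Egln3 (-2.55) were called lower in H. In HHC, Vegfa was called lower (-2.45, adjusted p = 0.20) with a CCC control at 83.3 and 338 CPM, and without the 4 libraries it was not called (-1.03).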

How the data were processed

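Adipocyte TRAP RNA of 20 mice was sequenced with an unstranded tagmentation library, and the authors deposited raw counts per gene. According to the submitters' processing notes, reads were checked with FastQC 0.11.9, trimmed with Trim Galore 0.6.6, aligned to mm10 with HISAT2 2.2.1 and counted with featureCounts (Subread 2.0.1), with edgeR for the tests. The annotation, strand setting and handling of read pairs are not given in the sources used here. Between 74.4% and 89.2% of the counts above 0 in a library were even, so both ends of a pair may have been counted, and counting without strand cannot separate overlapping genes.

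Groups came from the sample labels. Counts of all 20 libraries (10710277 to 36738954 per library) were fitted together with edgeR 4.0.16 in R 4.3.3, using filterByExpr, TMM normalization, 8 group means and the quasi-likelihood test, with Benjamini-Hochberg adjustment over 21464 genes. A call was a nominal p under 0.01 and a log2 fold change of 1 or more in size. Log2 CPM values used a prior count of 2, and CPM used TMM-scaled library sizes. DESeq2 1.42.0 was an alternative. Detection limits of 3 counts cover counting error only. Gene names and positions came from GENCODE vM21, and upstream windows from RefSeq on GRCm38.p6. Figures were drawn with matplotlib 3.10.9.

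Genes named are the 10 members, the genes called in the lists of other glycolytic, testis and hypoxia-response genes, Gapdh, Pgam1, Pfkm, Ldhb and Hk1 by default, cell type markers beside a result and the 5 genes most like the mean of the members. Other genes of these lists are named where leaving out the 4 libraries or the covariate called them, or where the interaction did, which was chosen after their values were seen. Members and lists were chosen with earlier results of these data known. The fits were also run on simulated counts, drawn around a common mean per gene apart from genes changed on purpose in H. These counts held no libraries high in Malat1 and no shifts in cell mixture, so they do not test calls under such differences. Leaving out the 4 libraries high in Malat1 (above 15000 CPM) and the nuclear RNA covariate were added after seeing the data.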

Additional observations from a re-analysis of the deposited data

Results flagged for a closer look

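No glycolysis enzyme of the 10 was singled out, but 11 related genes had effects that differed between the obese group and the group after WL, by the interaction test of edgeR at a nominal p under 0.01 with a difference of at least 1 on the log2 scale. They came from 22 other glycolytic genes, 6 testis isozymes and 11 hypoxia-response genes tested in each interaction, where 2.99% (H and HC effects) and 5.84% (HH and HHC effects) of all genes were called. The H effect lay below the HC effect for Pgam2 (difference of log2 fold changes -9.85), Eno3 (-2.74), Pfkfb1 (-1.71), Ldhc (-13.5), Pgk2 (-13.4) and Aldoart2 (-9.25), with adjusted p from 0.325 to 0.328. Pgam2, Ldhc, Pgk2 and Aldoart2 are at or near 0 counts in several groups and their differences depend on the prior count. Pgam2 stood at 155 CPM in mouse 1 of CC_l and at 46.3 CPM in mouse 3 of HC, the 2 libraries with the most spermatid RNA. Without the 4 libraries high in Malat1, 0 of these 6 were called.

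The HH effect lay above the HHC effect for Adpgk, an ADP-dependent glucokinase (1.94, adjusted p = 0.154), Slc2a1 (2.51, adjusted p = 0.168), Slc16a1 (2.70, adjusted p = 0.0686), P4ha1, a prolyl hydroxylase of collagen synthesis (2.26, adjusted p = 0.109), and Adm, which encodes adrenomedullin (3.54, adjusted p = 0.0369). Slc16a1, P4ha1 and Adm were still called without the 4 libraries, and Slc2a1 and Adpgk were not. P4ha1, Slc2a1 and Adpgk were not called without mouse 1 of CC_l, the library with the most spermatid RNA. The endothelial markers summed to 1708 and 841 CPM in HH, 161 and 175 CPM in CC_l, 83.6 and 102 CPM in HHC and 226 and 515 CPM in CCC. Summed progenitor markers stood at 4720 and 7225 CPM in HH, 497 and 887 CPM in CC_l, 560 and 1247 CPM in HHC and 1564 and 2626 CPM in CCC. The part of these cells in the gene values was not tested.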

How the results depend on the processing

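Each result was recomputed with RLE in place of TMM normalization, with no filter on low counts, with DESeq2, with halved counts, with the compared groups alone, with the replicate number as a block, at an adjusted p under 0.05, with each mouse left out, and, chosen after seeing the data, without the 4 libraries high in Malat1 and with the mean log2 CPM of nuclear-retained RNAs as a covariate. Under RLE and DESeq2 the number of members called stayed the same in all 4 comparisons and both interactions. Calls over all genes numbered 1392 in H, 374 in HC, 1458 in HH, 669 in HHC, 641 for the H and HC effects and 1254 for the HH and HHC effects. With adjusted p under 0.05, all genes called numbered 455 in H, 0 in HC, 445 in HH, 0 in HHC, 0 in the H and HC effects and 175 in the HH and HHC effects, and members called numbered 0 in H. With no filter on low counts, all genes called numbered 2492 in H, 1764 in HC, 2879 in HH, 1266 in HHC, 2088 in the H and HC effects and 2194 in the HH and HHC effects, and members called numbered 2 in H, and log2 fold changes of uncalled members took the other sign (Eno1 0.037 in HH). When the fit held the compared groups alone, all genes called numbered 243 in HC, 218 in HHC and 662 in the HH and HHC effects, and members called numbered 0 in H and 1 in HH, and log2 fold changes of uncalled members took the other sign (Eno1 0.015 in HH). Without the 4 libraries high in Malat1, all genes called numbered 239 in HC, 2472 in HH, 220 in HHC and 813 in the HH and HHC effects, and members called numbered 2 in H, and the median log2 fold change of the members was -0.49 in H, and log2 fold changes of uncalled members took the other sign (Pfkl -0.69, Pfkp -0.11, Aldoa -0.24, Pgk1 -0.29, Pkm -0.77 and Ldha -0.89 in H, Pfkl 0.070 and Pkm 0.17 in HC, Gpi1 -0.032, Aldoa -0.41, Pgk1 -0.19, Pkm -0.15 and Ldha -0.43 in HHC). With DESeq2, all genes called numbered 2267 in H, 783 in HC, 2369 in HH, 1235 in HHC, 1199 in the H and HC effects and 1950 in the HH and HHC effects. With nuclear-retained RNA as a covariate, all genes called numbered 2553 in H and 3308 in HH, and members called numbered 1 in HH, and the median log2 fold change of the members was -0.81 in HHC, and log2 fold changes of uncalled members took the other sign (Pfkl -0.37, Aldoa -0.085, Pgk1 -0.70, Eno1 -0.10, Pkm -0.39 and Ldha -0.51 in H, Tpi1 -0.11 and Pgk1 -0.19 in HC, Pgk1 -0.60 in HH, Gpi1 -0.42, Pfkl -0.44, Aldoa -1.26, Tpi1 -0.23, Pgk1 -0.62, Pkm -0.54 and Ldha -1.0002 in HHC). With the replicate block, all genes called numbered 204 in HC, 375 in HHC and 303 in the H and HC effects, and log2 fold changes of uncalled members took the other sign (Pkm 0.020 in HC). With halved counts, log2 fold changes of uncalled members took the other sign (Pgk1 -0.00087 in HC). With 1 mouse left out at a time, the members called ranged from 0 to 1 in H. With 1 mouse left out at a time, the number of genes called ranged from 757 to 1816 in H, 160 to 597 in HC, 569 to 1306 in HH, 138 to 1194 in HHC, 250 to 1245 in the H and HC effects and 552 to 1808 in the HH and HHC effects. With 1 mouse left out at a time, the median of the members ranged from 0.012 to 1.26 in H and -0.34 to 1.26 in HHC. With 1 mouse left out at a time, the log2 fold change went over 0 for Gpi1 -0.54 to 0.64 in H, Pfkl -0.12 to 1.10 in H, Pkm -0.17 to 1.43 in H, Ldha -0.19 to 1.83 in H, Gpi1 -0.48 to 0.040 in HC, Pfkl -0.58 to 0.11 in HC, Aldoa -0.33 to 0.86 in HC, Tpi1 -0.45 to 0.54 in HC, Pgk1 -0.74 to 0.54 in HC, Eno1 -0.36 to 1.12 in HC, Pkm -0.36 to 0.21 in HC, Pgk1 -0.20 to 0.57 in HH, Eno1 -0.19 to 0.12 in HH, Gpi1 -0.11 to 1.10 in HHC, Pfkl -0.048 to 0.86 in HHC, Aldoa -0.49 to 1.41 in HHC, Pgk1 -0.27 to 2.01 in HHC, Eno1 -0.83 to 0.73 in HHC, Pkm -0.24 to 1.44 in HHC and Ldha -0.52 to 1.59 in HHC. Where no gene passed the adjusted p of edgeR, 1866 in HC, 2292 in HHC and 2538 for the H and HC effects had an unadjusted p under 0.05. Of the calls in HHC, 14.3% were higher under TMM and 27.0% under RLE. Same-numbered mice did not vary together (median correlation of deviations -0.03 in the short and -0.09 in the long arm), so the replicate block is given here only, and it changed no call of a member. Leaving out 1 mouse of a group of 2 leaves 1, assumed to vary like the other groups. The cause of these changes was not tested. The intervals of the members span 1 or more on the log2 scale on either side in most comparisons, so smaller differences were not detectable with 2 or 3 mice per group.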
